A study of Mus musculus with 6 samples.

Results

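ATAC-seq of freshly isolated mouse muscle stem cells (MuSCs) yielded 75412 peaks, of which 40133 carried no gene in the deposited annotation. Of these, the 2369 peaks with a mean normalised read count of 1000 or more in the control libraries were examined here as strong peaks without a gene. They were chosen on their control values, so their level in control MuSCs is a description, and a comparison with control values is tilted by that choice. ATAC-seq uses the transposase Tn5 to cut and tag accessible DNA, so that the read count in a peak reflects how open the chromatin is. The 3 control libraries were titled WT and labelled Control for genotype. The study describes its controls as littermates with floxed Taf4a, either without the Pax7 Cre allele or carrying it, and with or without a Pax7-ZsGreen reporter. Which of these genotypes each control library had, and whether the mice of these control libraries received tamoxifen, was not given in the sources used here. The study does describe tamoxifen treatment of control mice for its body weight measurements. The 3 Taf4a sKO libraries came from MuSCs that lack TAF4A, a subunit of the general transcription factor TFIID, obtained in Pax7CreERT/Taf4a flox/flox mice in which tamoxifen removes exons 11 and 12 of Taf4a in Pax7-expressing cells. All mice were C57BL/6, the study used animals of 8 to 20 weeks, and each library was made from 50000 cells sorted as Integrin-a7-positive or, from reporter mice, by fluorescence after depletion of SCA1-, CD45- and CD31-positive cells. Whether a library held 1 animal or a pool was not given in the sources used here, so p-values measure the spread between these libraries.

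Strong accessible sites away from gene starts are commonly enhancers, insulators or promoters of alternative transcripts. Enhancers are bound by sequence-specific factors, in muscle cells among them E-box factors such as MYOD1 and MYF5 and the AP-1 dimers of FOS and JUN proteins, and can act on genes many kilobases away. In quiescent MuSCs the transcription factor PAX7, Notch signalling and its DNA-binding effector RBPJ maintain the stem cell state, whereas AP-1 genes respond within minutes to tissue damage and cell isolation.

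The normalised read counts in peaks summed to 37722015, 35226223 and 42803315 in control replicates 1, 2 and 3, and to 44311913, 41661725 and 41948821 in Taf4a sKO replicates 1, 2 and 3. From the spacing of the values, these totals correspond to an estimated number of reads of 27200000, 35200000 and 34700000 in control and 31900000, 30400000 and 32500000 in Taf4a sKO libraries. Counting error was therefore small for peaks of 1000 or more. The floxed part of Taf4a served as a check of the labels. The peak that covers exon 12 of Taf4a (chr2:179922849-179923263) had 65, 78 and 137 normalised reads in control and 44, 22 and 25 in Taf4a sKO libraries, and was lower in the latter (log2 change of -1.58, limma adjusted p = 3.4e-04). The peak at the Taf4a start, outside the floxed part, ranged from 1998 to 2375 in control and from 2095 to 2124 in Taf4a sKO libraries. The fall was not confined to the floxed exons, since intronic peaks of Taf4a that overlap neither exon, at chr2:179931701-179932202 and chr2:179916955-179917641, were also lower (log2 changes of -0.83 and -0.49, limma adjusted p = 1.4e-04 and 0.027).

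Accessible starts of marker genes were compared as a check of the cell type. All 6 MuSC markers (Pax7, Myf5, Calcr, Itga7, Cdh15 and Vcam1) had a peak within 1 kb of a start, with sums of 10412, 8423 and 10219 in control and 9501, 9010 and 9057 in Taf4a sKO libraries. Of these, the Pax7 start was lower (4533, 3128 and 3729 in control against 3084, 2923 and 3026, log2 change of -0.32, limma adjusted p = 0.03) and the Vcam1 start was higher (log2 change of 0.35, limma adjusted p = 0.018). Without control replicate 1, which had the highest Pax7 value, the change at the Pax7 start was -0.18 and did not pass the test (limma adjusted p = 0.33). None of the 5 haematopoietic markers, among them Ptprc, which encodes CD45, had a peak at its start. Of 4 fibro-adipogenic markers, 3 had one, with sums of 2520, 2219 and 2739 in control and 3473, 3252 and 3230 in Taf4a sKO libraries, led by Col1a1 and Pdgfra, while Ly6a, which encodes SCA1, had none. Col1a1 and Dcn starts were higher in Taf4a sKO libraries (log2 changes of 0.63 and 0.84). Of 4 endothelial markers, 2 had a peak, and the Pecam1 start rose from 60 to 142. Cdh5 and Tie1 had none. Peaks were also present at the starts of 2 of 4 fibre, 1 of 3 glial, 2 of 3 pericyte and 1 of 2 tendon markers, none of which passed the test. In bulk libraries, more cells of a type and more open chromatin per cell cannot be told apart, and the part of other cell types in the differences given here was not tested.

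The central bases of 6 strong peaks without a gene are shown, because the comparisons below turn on them. They are the strongest peak of all, the strongest one that lies over 10 kb from any start, neighbouring intronic peaks of Pax7 of which 1 fell and 1 did not pass the test, and the strongest peaks near Hes1, a Notch target gene, and Dag1, which encodes dystroglycan. Sequences are 300 bases from the middle of each peak on the plus strand of GRCm38.p6, from RefSeq, and overlapped no annotated exon. Capitals mark matches on either strand to the AP-1 motif TGANTCA, to the E-boxes CAGCTG and CATGTG, and to the GC box GGGCGG.
Ppp2r3d start (chr9:124424184-124424483): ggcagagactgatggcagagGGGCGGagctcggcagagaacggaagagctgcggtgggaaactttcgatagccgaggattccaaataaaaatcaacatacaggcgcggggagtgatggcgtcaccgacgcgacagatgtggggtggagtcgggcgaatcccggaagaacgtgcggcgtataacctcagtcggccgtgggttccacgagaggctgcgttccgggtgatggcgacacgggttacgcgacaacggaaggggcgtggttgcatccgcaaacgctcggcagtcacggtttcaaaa
38 kb beyond the Pax7 gene (chr4:139698220-139698519): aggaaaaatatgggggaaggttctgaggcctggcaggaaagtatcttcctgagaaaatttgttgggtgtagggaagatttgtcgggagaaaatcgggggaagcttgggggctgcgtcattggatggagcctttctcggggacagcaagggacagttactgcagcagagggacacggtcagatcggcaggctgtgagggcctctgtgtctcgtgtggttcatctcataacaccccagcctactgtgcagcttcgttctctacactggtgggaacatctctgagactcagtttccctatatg
Pax7 intron, strongest (chr4:139771363-139771662): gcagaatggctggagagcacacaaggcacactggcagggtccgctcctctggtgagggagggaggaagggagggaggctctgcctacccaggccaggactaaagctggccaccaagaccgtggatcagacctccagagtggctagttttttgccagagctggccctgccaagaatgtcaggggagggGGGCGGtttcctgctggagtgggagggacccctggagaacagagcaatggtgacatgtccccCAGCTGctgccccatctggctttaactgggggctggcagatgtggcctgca
Pax7 intron, fell (chr4:139772646-139772945): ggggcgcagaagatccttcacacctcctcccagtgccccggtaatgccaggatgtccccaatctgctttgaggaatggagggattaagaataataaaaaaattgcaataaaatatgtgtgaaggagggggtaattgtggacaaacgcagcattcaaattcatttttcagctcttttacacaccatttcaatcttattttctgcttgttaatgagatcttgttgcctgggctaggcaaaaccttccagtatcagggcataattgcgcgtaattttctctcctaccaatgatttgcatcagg
Upstream of Hes1, rose (chr16:30024770-30025069): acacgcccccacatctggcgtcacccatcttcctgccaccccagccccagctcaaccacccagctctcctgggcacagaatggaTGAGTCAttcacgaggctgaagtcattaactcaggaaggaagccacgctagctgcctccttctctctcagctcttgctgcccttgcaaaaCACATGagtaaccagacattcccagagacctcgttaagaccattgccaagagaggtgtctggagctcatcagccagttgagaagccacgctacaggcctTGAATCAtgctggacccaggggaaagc
Near Dag1, fell (chr9:108274664-108274963): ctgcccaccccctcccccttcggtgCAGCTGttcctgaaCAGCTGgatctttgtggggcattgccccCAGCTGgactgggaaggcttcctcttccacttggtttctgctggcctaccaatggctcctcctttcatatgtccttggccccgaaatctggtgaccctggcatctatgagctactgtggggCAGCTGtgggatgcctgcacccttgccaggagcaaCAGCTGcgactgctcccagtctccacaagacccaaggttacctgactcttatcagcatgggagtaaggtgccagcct

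The Ppp2r3d window held 1 GC box. The window beyond Pax7 and the window of the fallen Pax7 peak held none of these letters, whereas the other Pax7 window held 1 CAGCTG and 1 GC box. The Hes1 window held 2 AP-1 matches and 1 CATGTG and the Dag1 window 5 CAGCTG E-boxes.

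Absence of a gene in the deposited table did not always mean distance from a promoter. The deposited annotation had mostly linked peaks to genes whose outermost start lay within 10 kb. For 99.53% of 35197 annotated peaks the deposited distance equalled, within 0.5 bp, that from the peak centre to the outermost GENCODE start of the gene. There were exceptions: by their centre, 32 of 9369 strong peaks with a gene lay over 10 kb from any start. Of the strong peaks without a gene, 17 lay within 10 kb of an outermost start. Starts of shorter transcripts inside a gene were not used. Against all GENCODE transcript starts, 408 of the 2369 strong peaks without a gene (17.2%) lay within 1 kb of a start, 349 (14.7%) lay at 1 to 10 kb and 1612 (68.0%) lay over 10 kb away. Of the 408, 396 were at starts of protein-coding genes and 401 had the outermost start of that gene over 10 kb away, with a median of 39.9 kb over the 408. The 401 peaks are therefore at alternative, internal promoters by annotation, among them those of Rbpj, Kat6b, Runx1, Ets1, Nr4a1, Hdac4, Lmna and Atf3. Of the distal peaks, 1337 lay at 10 to 50 kb, 215 at 50 to 100 kb and 60 beyond 100 kb. By feature, 1024 peaks (43.2%) were intronic, 879 (37.1%) intergenic and 58 (2.45%) exonic. Among the 9369 peaks with a gene above the same threshold (median control value of 1827, against 1456 for those without a gene), 86.5% were within 1 kb of a start, and among the 37764 weaker peaks without a gene, 4.13% were.

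**Figure D1:**
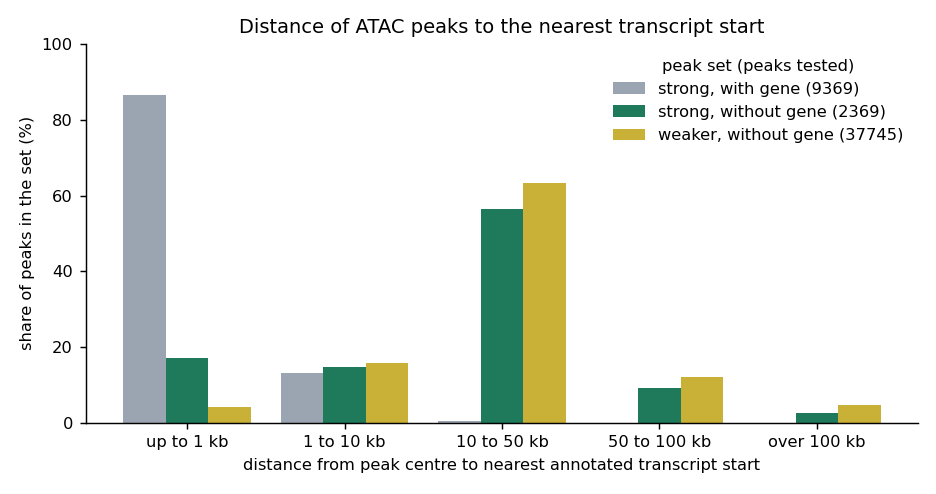
Share of peaks (%) in each class of distance from the peak centre to the nearest annotated transcript start, for strong peaks with a gene, strong peaks without a gene and weaker peaks without a gene. Of the strong peaks without a gene, 17.2% lie within 1 kb of a start and 56.4% at 10 to 50 kb.

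The strong peaks without a gene were broader than weaker ones, but not than strong peaks with a gene. They were chosen on the read count over the whole peak, which favours wide peaks. Their median width was 1144 bp, with quartiles of 937 and 1432 bp and a range from 412 to 6055 bp, against 1241 bp for strong peaks with a gene, 484 bp for weaker peaks without a gene and 589 bp for all peaks tested. Width and control level were related across all 40133 peaks without a gene (Spearman's rho of 0.823 across peaks, which share libraries and a peak caller) and less so within the strong ones (0.352, n = 2369). Most peaks lay close above the threshold: 1253 (52.9%) had a control mean of 1000 to 1500, 571 of 1500 to 2000, 391 of 2000 to 3000, 137 of 3000 to 5000, and 17 had 5000 or more. The share within 1 kb of a start was 12.6% in the lowest of these bins and 41.2% in the highest. Base composition followed the class. Peaks within 1 kb of a start had a median GC content of 59.9% and an observed-to-expected CpG ratio of 0.624, close to the 60.1% and 0.726 of strong peaks with a gene, whereas peaks over 10 kb away had 49.9% and 0.256. The median share of repeat-masked bases was 9.31%, 4 peaks were masked over at least 50% of their length, and no peak matched the mitochondrial genome. In 5 peaks the central 300 bases matched a second place on the assembled chromosomes (95% identity or more over 80% of the length), so that reads of a near-identical copy could have been lost or shared there.

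The strongest peak without a gene was the internal start of Ppp2r3d (chr9:124422762-124425904), which encodes a regulatory subunit of protein phosphatase PP2A. It had 12431, 10568 and 13454 normalised reads in control and 13949, 12024 and 12152 in Taf4a sKO libraries. The groups overlapped (log2 change of 0.07, SE 0.10, limma adjusted p = 0.64). Of the 10 strongest peaks, 6 were internal starts, the others being those of Kat6b, a histone acetyltransferase (control mean of 7261), Nr3c1, the glucocorticoid receptor (6097), Rbpj (5716), Stag1, a cohesin subunit (5687), and Pnrc1, a nuclear receptor coregulator (5583). The Rbpj peak (chr5:53588757-53591114) lay 124 kb from the outermost Rbpj start and had 5777, 5063 and 6309 normalised reads in control and 6665, 6276 and 5983 in Taf4a sKO libraries.

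The other 4 of the 10 strongest peaks lay 17.6 to 44.8 kb from any start, and 1 of them passed the test. The intergenic peak at chr12:55464046-55467316, 26.1 kb from Nfkbia, which encodes the NF-kB inhibitor IkBa, had 5789, 5566 and 7062 normalised reads in control and 8290, 7050 and 7687 in Taf4a sKO libraries (log2 change of 0.33, SE 0.11, limma adjusted p = 0.015). The lowest Taf4a sKO value was under the highest control value, and without control replicate 1, control replicate 2, Taf4a sKO replicate 1 or Taf4a sKO replicate 3 the change of 0.29, 0.26, 0.27 or 0.32 did not pass the test. The peak 18.4 kb upstream of Fos (chr12:85454917-85456162) had 5960, 4944 and 6136 in control and 6489, 5451 and 5613 in Taf4a sKO libraries, with overlapping groups. The peak 17.6 kb from the Wnt ligand gene Wnt7b (chr15:85598937-85601135) had control and Taf4a sKO means of 5688 ± 513 and 5759 ± 592 (SD, n = 3 each). Without control replicate 3, which had the highest control values, 3 further peaks of the 10 passed the test: Nr3c1 (log2 change of 0.23), Rbpj (0.22) and Stag1 (0.19). The Nr3c1 peak also passed it with quantile normalisation.

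The comparison of Taf4a sKO with control libraries asked how accessibility changes when TAF4A is lost. Of the 2369 strong peaks without a gene, 872 (36.8%) had higher and 208 (8.78%) had lower values in MuSCs of Taf4a sKO mice (limma adjusted p under 0.05), against 28.0% and 13.9% of all 75384 peaks tested. Every Taf4a sKO value exceeded every control value in 927 peaks (39.1%, against 32.3% of all peaks), and the reverse held in 236 (9.96%, against 18.0%). The changes were mostly small. The median log2 change was 0.19 (quartiles of 0.01 and 0.38, range from -1.86 to 1.18), against 0.11 for all peaks, 0.16 for weaker peaks without a gene and 0.08 for strong peaks with a gene. The median of strong peaks without a gene was 0.11 without control replicate 2 (0.05 for all peaks). Without control replicate 3 it was 0.27 (0.17 for all peaks), and under the other 4 scalings 0.04 to 0.08 (-0.04 to -0.01). A ratio of group means beyond 2-fold was reached upwards by 9 peaks (0.38%, against 7.02% of all peaks) and downwards by 18 (0.76%, against 5.36%). The shares upwards and downwards were smaller among strong peaks with a gene (0.0427% and 0.192%) and larger among weaker peaks without a gene (9.47% and 7.15%).

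The balance of higher and lower peaks depended on the scaling between libraries. Of the calls, 80.7% were higher with the deposited normalisation, 66.0% after TMM scaling (891 against 458 lower) and 59.7% after quantile normalisation (850 against 573 lower). Another scaling moved the median of all peaks from 0.11 to between -0.04 and -0.01. The median change of strong peaks without a gene exceeded that of strong peaks with a gene by 0.11 with the deposited normalisation, and by 0.10 to 0.11 with the other scalings. The sets differ in position, since 17.2% of the former and 86.5% of the latter lay within 1 kb of a start. Control replicate 3 weighed on the count: without it 1429 peaks were higher and 29 exceeded 2-fold, while without any 1 other library 600 to 732 were higher.

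**Figure D2:**
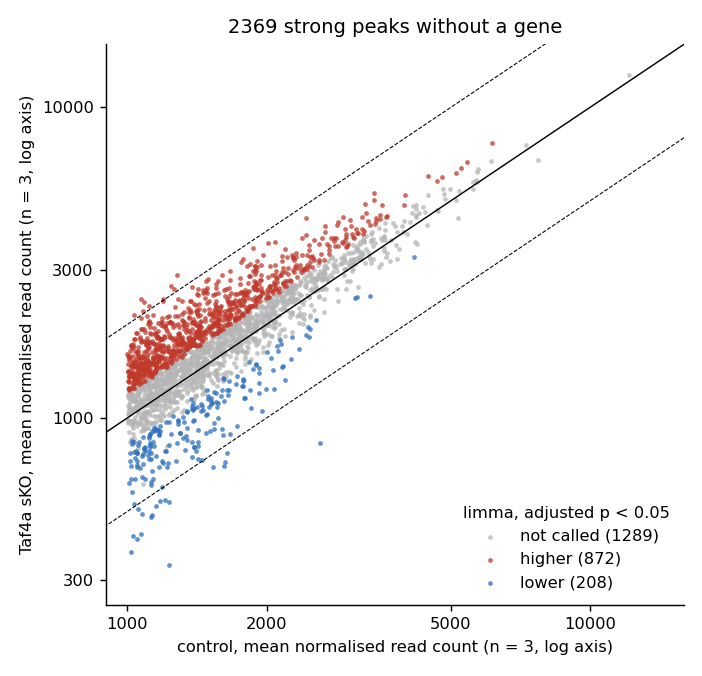
Mean normalised read count in control against Taf4a sKO libraries (n = 3 each, log axes) for the 2369 strong peaks without a gene, coloured by the limma call. The solid line marks equal means and the dashed lines a 2-fold difference; 872 peaks are higher, 208 lower, and 27 lie beyond the dashed lines.

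The share of changed peaks followed the position relative to gene starts. Within 1 kb of a start, 86 of 408 peaks (21.1%) were higher and 21 (5.15%) lower, with a median log2 change of 0.11. At 1 to 10 kb, 162 of 349 (46.4%) were higher and 38 (10.9%) lower, with a median of 0.24. Over 10 kb away, 624 of 1612 (38.7%) were higher and 149 (9.24%) lower, with a median of 0.20. Strong peaks with a gene also had smaller shares of changed peaks within 1 kb of a start than farther away. Within 1 kb of a start, 7.87% of 8106 were higher and 1.6% lower, and at larger distances 33.3% of 1263 were higher and 8.39% lower. Their median log2 changes were 0.07 within 1 kb and 0.15 at larger distances. The difference between strong peaks with and without a gene over 1 kb from a start was not tested. The median log2 change was 0.21 in the bin of 1000 to 1500 and 0.07 in the bin of 5000 or more, but the bins, like the peaks, were set by the control values. When peaks without a gene were instead chosen by a mean of 1000 or more over all 6 libraries, 1299 of 2768 (46.9%) were higher and 138 (4.99%) lower, and when chosen by the Taf4a sKO mean, 1798 of 3245 (55.4%) were higher and 83 (2.56%) lower.

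By library, the median of strong peaks without a gene was lower in every control than in every Taf4a sKO library. Their shares of the reads met between the groups at 10.6%. Strong peaks without a gene held 10.4%, 10.2% and 10.6% of the normalised reads of control and 10.9%, 10.6% and 10.7% of those of Taf4a sKO replicates 1, 2 and 3. Their median value was 1424, 1315 and 1657 in control and 1807, 1673 and 1702 in Taf4a sKO libraries. The median of control replicate 3 lay close to those of the Taf4a sKO libraries. Across the 2369 peaks, Pearson's correlation of log2 values was 0.935 to 0.974 among control pairs, 0.976 to 0.983 among Taf4a sKO pairs and 0.765 to 0.838 across the groups, all points sharing the peak set and its selection.

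The largest rise was at an internal start of Synm, which encodes the intermediate filament protein synemin of muscle. It had 1057, 929 and 1227 normalised reads in control and 2434, 2345 and 2450 in Taf4a sKO libraries, with groups far apart (log2 change of 1.18, SE 0.11, limma adjusted p = 2.8e-08). The intronic peak of the zinc transporter gene Slc39a14 (chr14:70329683-70330437) had 872, 864 and 1521 in control and 2552, 2317 and 2230 in Taf4a sKO libraries (1.17, SE 0.20, limma adjusted p = 0.001). Control replicate 3 stood apart from the other control libraries there. The intergenic peak at chr9:102649877-102651263, 22.1 kb from Anapc13, which encodes a subunit of the anaphase-promoting complex, had 1307, 1183 and 1350 in control and 3020, 2928 and 2691 in Taf4a sKO libraries (1.17, SE 0.10, limma adjusted p = 1.2e-08). An intergenic peak 103 kb from Spred1, an inhibitor of Ras-ERK signalling (chr2:117017826-117019640), rose by 1.15, and here too control replicate 3 (1742) was above the other control libraries (978 and 1002). The fifth, at chr14:106193211-106194540 and 18.1 kb from the nearest start, had 945, 932 and 1222 in control and 2252, 2138 and 2024 in Taf4a sKO libraries.

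Selection on the control mean leaves out peaks that rise from a low control value, so the sizes of falls and rises cannot be compared. When peaks were chosen by the Taf4a sKO mean, 162 had a ratio of group means above 2-fold upwards and 0 downwards. An intronic peak of Fstl4 had 1339, 1171 and 1176 normalised reads in control and 348, 333 and 329 in Taf4a sKO libraries (log2 change of -1.86, SE 0.12, limma adjusted p = 1.5e-10). The intronic peak of Olfm2 at chr9:20689473-20690326, 16.8 kb from the nearest start, had 2253, 2426 and 3148 in control and 763, 770 and 960 in Taf4a sKO libraries (-1.64, SE 0.13). In both peaks the groups were well separated and the Taf4a sKO libraries lay close together. Intronic peaks of Cacna1d, an L-type calcium channel gene (chr14:30292307-30293155), and Tmeff2 (chr1:51090048-51090765) fell by 1.46 and 1.37 on the log2 scale. An intergenic peak 258 kb from Clint1 (chr11:45592874-45594280) fell by 1.32, from a mean of 1067 ± 186 to 424 ± 38.0 (SD, n = 3 each). Of these 10 peaks with the largest changes, 1 lay within 1 kb of a start. All 10 passed the test in the same direction under every other scaling and without any 1 library.

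**Figure D3:**
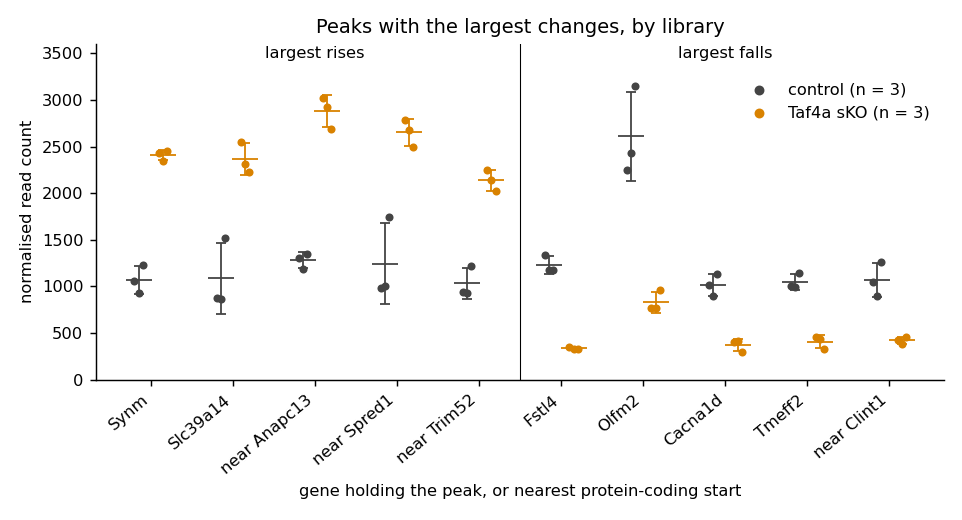
Normalised read count in each library (points), with mean and SD (bars, n = 3), for the 5 strong peaks without a gene with the largest rises and the 5 with the largest falls. The peaks were chosen among those whose groups do not overlap. Control replicate 3 is the highest control point in the Slc39a14 intron (1521) and near Spred1 (1742).

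Of 40 genes of MuSC quiescence and activation, 28 had at least 1 strong peak without a gene inside them or within 100 kb of a start, 60 distinct peaks in all. For 13 of the 28 genes, the strongest such peak was closer to the start of another gene, so the gene names below give position only. Of these, 17 (28.3%) were higher, 8 (13.3%) lower and 35 did not pass the test, with a median log2 change of 0.12. These values were close to those of all peaks tested (28.0% higher, 13.9% lower, median of 0.11). Over all strong peaks without a gene, the like set, the share of higher peaks was larger (36.8%), that of lower peaks smaller (8.78%) and the median larger (0.19). No such peak was found for Pax3, Myf5, Myog, Itga7, Chodl, Spry1, Foxo3, Cxcr4, Klf4, Fosb, Junb and Jund.

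Of the 40 genes, Pax7, the key transcription factor gene of MuSCs, had the most, 7 intronic peaks. The strongest (chr4:139770858-139772167, 61.5 kb from the start) had 7447, 4415 and 4862 normalised reads in control and 6010, 4944 and 5438 in Taf4a sKO libraries, with overlapping groups. The neighbouring peak at chr4:139772437-139773153 had 2280, 1288 and 1293 in control and 756, 674 and 676 in Taf4a sKO libraries, and was lower (log2 change of -1.15, SE 0.20, limma adjusted p = 7.7e-04). The peak at chr4:139782810-139783953 had 2123, 1241 and 1553 in control and 788, 729 and 792 in Taf4a sKO libraries, and was also lower (-1.06, SE 0.15, limma adjusted p = 4.8e-05). By contrast the peak at chr4:139750809-139752134 had 2140, 1445 and 2113 in control and 2795, 2579 and 2698 in Taf4a sKO libraries, and was higher (0.52, SE 0.13, limma adjusted p = 0.003). Within 1 gene, peaks thus moved in opposite directions beyond the spread between libraries. Beyond the 3' end of Pax7 lay a cluster of 5 peaks within 18188 bp, whose strongest (chr4:139697536-139699202) was the second strongest of all, with 10439, 5804 and 6960 in control and 7738, 6126 and 6380 in Taf4a sKO libraries.

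Control replicate 1 was the highest control library over most of this stretch, and the Pax7 results are therefore given with and without it. Read counts in peaks cannot tell more copies of a DNA stretch from more open chromatin. The Pax7 alleles of each library, the Cre allele and the ZsGreen reporter included, were not given in the sources used here, and their part in these values was not tested. Across 43 peaks from chr4:139669794 to chr4:139873019, a stretch of 203 kb, its values were a median of 0.46 (log2) above the mean of the other control libraries, higher in 42 of 43 peaks, against -0.06 over all peaks with a control mean above 100. The 20 peaks before and the 20 after the stretch had medians of -0.01 and -0.09. In windows of 15 neighbouring peaks, the highest median of control replicate 1 on the genome, 0.50, lay in this stretch, which was examined after its values had been seen. Windows as high or higher occurred elsewhere in other libraries, with highest medians of 0.78 in control replicate 3 (on chromosome 6), 0.73 in Taf4a sKO replicate 2 (16) and 0.51 in Taf4a sKO replicate 1 (4). Over the Pax7 stretch, control replicate 2 had a median of -0.40 and control replicate 3 of -0.12 against the other control libraries. The 3 Taf4a sKO libraries had medians of 0.03, -0.09 and 0.01 there against each other. Without control replicate 1, the fallen Pax7 peaks remained lower (log2 changes of -0.88 and -0.85, limma adjusted p = 2.4e-08 and 5.2e-08), and the risen one higher (0.62). In that fit each of the 13 strong peaks without a gene in the stretch had an SE of 0.14, against 0.12 to 0.23 with all libraries. Its p-values thus hardly reflect the spread of each single peak, and cannot be compared with those from all libraries. Of the 13 strong peaks without a gene in the stretch, 3 were higher and 3 lower with all libraries, and 5 were higher and 2 lower without control replicate 1. With all libraries, the shares over all strong peaks without a gene were 36.8% higher and 8.78% lower, and over all peaks 28.0% and 13.9%. The strongest peak beyond Pax7 had a log2 change of -0.16 with all libraries and 0.08 without control replicate 1, neither of which passed the test.

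**Figure D4:**
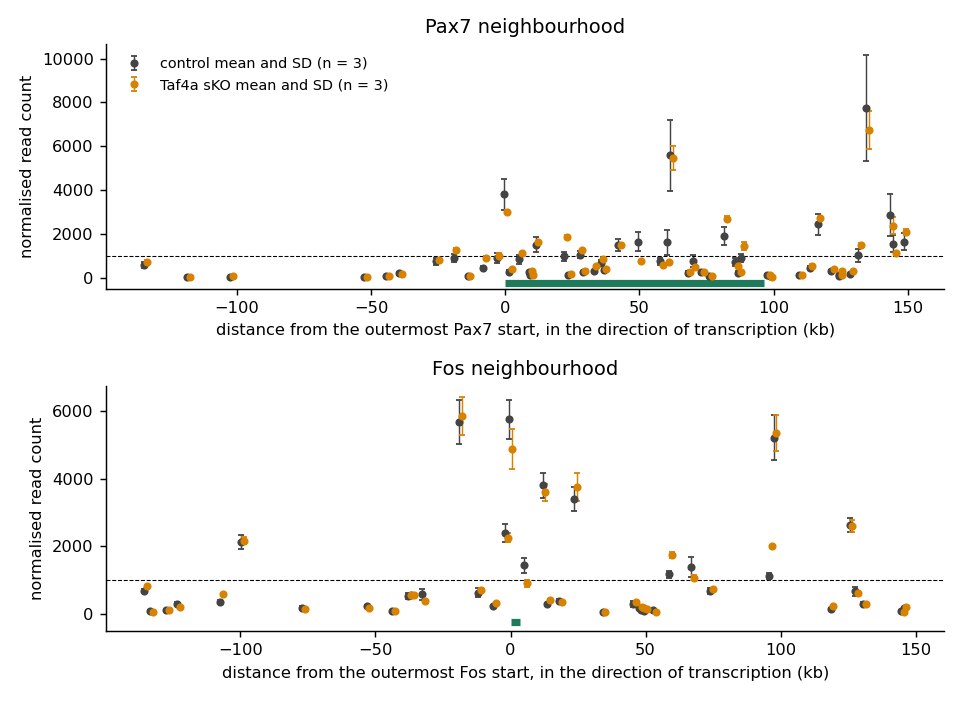
Mean and SD of the normalised read count (n = 3 each) of every peak within 160 kb of the outermost start of Pax7 (top) and Fos (bottom), against distance in the direction of transcription (kb). The green bar is the gene, the dashed line a value of 1000, and at the strongest intronic Pax7 peak the control values run from 4415 to 7447.

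Peaks around AP-1 genes differed between neighbours. Near Fos, 6 strong peaks without a gene lay 11.4 to 96.9 kb from a start, and 4 of them did not pass the test, namely those with control means of 5680, 5215, 3810 and 3403. The peak at chr12:85569759-85570493 had 1102, 1031 and 1228 in control and 2039, 2003 and 2012 in Taf4a sKO libraries (log2 change of 0.85, SE 0.10, limma adjusted p = 8.9e-07), whereas that at chr12:85540685-85541650 had a log2 change of -0.36 (limma adjusted p = 0.027). The peak near Jun, in an intron of Junos (chr4:95105312-95106374), had 999, 966 and 1445 in control and 2132, 2199 and 2104 in Taf4a sKO libraries (0.94, SE 0.13, limma adjusted p = 1.1e-05). The strongest peaks near Atf3, Cebpb and Egr1 had log2 changes of 0.11, 0.12 and -0.07 and did not pass the test. That of Egr1, an immediate early gene, was lower under the other 4 scalings (-0.22 to -0.18), and that of Cebpb was higher without control replicate 3 (0.21). Of 3 peaks near Cebpb, a weaker one (chr2:167759953-167761840) had 1234, 1529 and 2195 in control and 2463, 2249 and 2440 in Taf4a sKO libraries. It was higher (log2 change of 0.57, SE 0.17, limma adjusted p = 0.015), and none was lower. Among all strong peaks without a gene, 36.8% were higher and 8.78% lower, and among all peaks 28.0% and 13.9%.

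Of 8 strong peaks without a gene near Notch1, Notch3, Hes1, Hey1, Heyl and Rbpj, genes of the Notch pathway, 3 were higher and 1 lower, beside 36.8% and 8.78% of all strong peaks without a gene and 28.0% and 13.9% of all peaks. The peak 39.5 kb upstream of Hes1 (chr16:30024581-30025258) had 1271, 1132 and 1644 in control and 2379, 2203 and 2206 in Taf4a sKO libraries (log2 change of 0.76, SE 0.12, limma adjusted p = 3.1e-05), while a second Hes1 peak at 44.2 kb (chr16:30019694-30020714) was lower (-0.43, limma adjusted p = 0.0029). The strongest peaks of the receptor gene Notch3 (chr17:32091061-32092179) and of the target gene Heyl (chr4:123246908-123247837) were higher by 0.48 and 0.45, with non-overlapping groups. The Notch3 peak, however, lay at the start of the pseudogene Pdxk-ps. The peaks of Notch1 (0.06), Hey1 (0.25) and Rbpj (0.15) did not pass the test with all libraries, and those of Hey1 (0.37) and Rbpj (0.22) did without control replicate 3.

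Among surface receptor, adhesion and matrix genes, the strongest peaks of Tgfbr3, Vcam1 and Sdc4 were higher with groups that did not overlap. The intergenic peak 45.1 kb from Tgfbr3, which encodes the TGF-beta co-receptor betaglycan (chr5:107087061-107088679), had 2812, 2538 and 3424 in control and 4878, 4134 and 4329 in Taf4a sKO libraries (log2 change of 0.61, SE 0.11, limma adjusted p = 1.3e-04). The peak 59.9 kb from the start of Vcam1, a cell adhesion gene, changed by 0.45 (limma adjusted p = 0.0031). The intronic Sdc4 peak (chr2:164431715-164433517), in the syndecan-4 gene, changed by 0.32 (limma adjusted p = 0.022), but without control replicate 1, control replicate 2 or Taf4a sKO replicate 1 the change of 0.31, 0.22 or 0.25 did not pass the test. The peak 10.9 kb from Dag1 (chr9:108274450-108275177), with its 5 CAGCTG E-boxes, was lower, with 1387, 1070 and 1112 in control and 759, 440 and 592 in Taf4a sKO libraries (-1.02, SE 0.17, limma adjusted p = 2.6e-04). The strongest peaks of Fgfr1, Fgfr4, Met, Cd34, Cdh15 and Chrdl2 had log2 changes from 0.06 to 0.22 and did not pass the test. The Cdh15 peak lay in an exon of Ankrd11 and passed the test with median-of-ratios factors (0.11) and quantile normalisation (0.12), and the Chrdl2 peak was closer to the start of Pold3. Without control replicate 3 those of Fgfr1 (0.21), Met (0.22), Cd34 (0.29), Cdh15 (0.34) and Chrdl2 (0.27) did. Weaker peaks of these genes moved in both directions. In or near Fgfr1, which encodes a fibroblast growth factor receptor, 2 of 3 peaks were higher, at 47.7 kb from the start (chr8:25465361-25466501, log2 change of 0.62, limma adjusted p = 5.2e-04) and inside the gene (chr8:25542916-25545091, 0.39, limma adjusted p = 0.0031). Of 4 peaks near Fgfr4 and 4 near Chrdl2, 1 each was higher (0.43 and 0.45) and none was lower. These counts stand beside 36.8% higher and 8.78% lower among all strong peaks without a gene, and 28.0% and 13.9% of all peaks. A weaker Met intron peak (chr6:17515728-17516819) had 1171, 1076 and 1157 in control and 655, 618 and 631 in Taf4a sKO libraries (-0.84, SE 0.11, limma adjusted p = 2.1e-06).

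Transcription factor genes of the myogenic programme also differed in direction. The peak 38.7 kb from Myod1, the myogenic determination gene (chr7:46337302-46338271), had 1735, 1559 and 2077 in control and 2551, 2303 and 2353 in Taf4a sKO libraries (log2 change of 0.43, SE 0.11, limma adjusted p = 0.0029). Of 6 peaks within 100 kb of an Nfix start or inside the gene, 1 intronic peak was higher and 1 was lower, the latter 72.6 kb from an Nfix start in an intron of Cacna1a, whose internal start was another of the 6. Over all strong peaks without a gene, 36.8% were higher and 8.78% lower, against 28.0% and 13.9% of all peaks. The strongest of the 6 Nfix peaks (chr8:84814227-84816528, control mean of 4222) had a log2 change of -0.21. That change did not pass the test with the deposited normalisation, and did under the other 4 scalings (-0.36 to -0.32) and without control replicate 2 (-0.24). The same held for the stronger of 2 intronic peaks of Megf10, an engulfment receptor gene (-0.24, against -0.39 to -0.35 under the other scalings and -0.30 without control replicate 2), whereas the weaker one was higher (0.32, limma adjusted p = 0.016). For Calcr, the calcitonin receptor gene, the change of -0.19 did not pass the test with the deposited normalisation (limma adjusted p = 0.17), and did under the other 4 scalings (-0.33 to -0.30).

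Motif letters in the central 300 bases separated the classes of position. AP-1 letters occurred in 26.3% of the strong peaks without a gene, against 22.0% of all peaks, 26.7% of weaker peaks without a gene and 6.77% of strong peaks with a gene. The share was 9.56% within 1 kb of a start and 30.5% over 10 kb away. The GC box showed the opposite order, with 218 of 408 (53.4%) within 1 kb and 242 of 1612 over 10 kb, against 15098 of all 75384 peaks. CAGCTG occurred in 34.1% (29.1% of all peaks), CATGTG in 19.0% (18.3%), the RUNX letters TGTGGT in 18.6% (20.3%), the TEAD letters GGAATG in 19.0% (19.0%) and the NF-Y letters CCAAT in 30.1% (32.2%). The ETS letters CCGGAAG and the CRE letters TGACGTCA were found in 3.33% (4.25%) and 1.39% (1.09%), the MEF2 motif in 3.17% (3.76%), and the NF1 motif in 0 of 2369 peaks (0.0915%). The general E-box CANNTG, which includes both forms above, was found in 80.7%, against 80.4% of all peaks. The CTCF motif, that of the insulator protein, was found in 2.57%, against 7.3% of all peaks, 7.64% of weaker peaks without a gene and 2.82% of strong peaks with a gene. Over whole peaks, which differ in width, the shares were 11.1% and 11.3% of all peaks. Among the 872 higher peaks AP-1 letters occurred in 32.5% and CAGCTG in 30.7%, and among the 208 lower peaks in 18.8% and 45.7%. The order of these pairs was the same in windows of 200 and 500 bases (AP-1 in 24.5% and 46.0% of higher against 12.5% and 23.1% of lower peaks, CAGCTG in 22.1% and 43.9% against 38.0% and 68.8%). A match is a description of the letters and not a binding site.

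**Figure D5:**
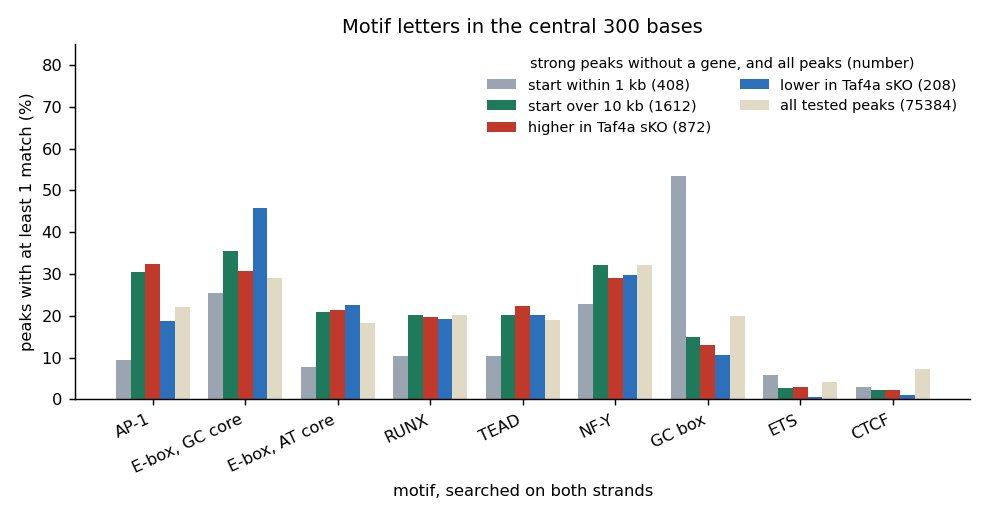
Share of peaks (%) with at least 1 match, on either strand, to each motif in the central 300 bases, for strong peaks without a gene by distance to a start and by limma call, and for all tested peaks. The GC box is found in 53.4% of peaks within 1 kb of a start, and AP-1 letters in 32.5% of higher and 18.8% of lower peaks.

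Some strong peaks without a gene lay close together. Another one lay within 12.5 kb of 585 peaks (24.7%), within 5 kb of 325 and within 50 kb of 1044. At 12.5 kb there were 4 groups of 5 peaks, 6 of 4, 37 of 3 and 215 of 2. The groups of 5 lay beyond Pax7, in Synpo, near Morn1 and near Spsb1. In the Synpo group, the gene of the actin-binding protein synaptopodin, 4 of 5 peaks were higher, with summed control and Taf4a sKO means of 10799 and 14975, whereas near Morn1 none of 5 passed the test (10427 and 10669). Groups of 4 lay at Wnt7b, Pax7, Fgfr4, Arhgap23, Pde4b and Dnajb12. The genes holding most were Gm20388, Gse1 and Pde4d, a cAMP phosphodiesterase gene, with 10 peaks each. In Gm20388, 6 were higher and 1 lower, and in Gse1 and Pde4d 4 were higher and none lower, beside 36.8% higher and 8.78% lower among all strong peaks without a gene. The next 3 genes, with 7 peaks each, were Cuedc1 (2 higher), Pax7 (1 higher, 2 lower) and Sept9 (5 higher). By chromosome, the share of peaks that were strong and without a gene ranged from 2.02% on X to 4.11% on 4, apart from 2 of 12 peaks on Y, both of which were lower (chrY:90739345-90740567 and chrY:90811487-90813129, log2 changes of -1.15 and -1.06). The second of these was repeat-masked over 95.1% of its length. The fall was not particular to them, since all 12 peaks on Y had a negative log2 change, from -1.51 to -0.26, though not all passed the test. The study used males and females, and the part of sex in these values was not tested.

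Peaks at the limits of width, distance and level were not alike in their change. The widest, an intronic peak of Tmem267 of 6055 bp (chr13:119596434-119602489), was 69.9% repeat-masked, had central 300 bases that matched 4 places in the genome, and had 1741, 1783 and 1317 in control and 924, 1184 and 1280 in Taf4a sKO libraries (log2 change of -0.51, limma adjusted p = 0.0049). Under the other 4 scalings this change (-0.68 to -0.63) did not pass the test (limma adjusted p of 0.072 to 0.087). The peak farthest from any start, 273 kb, lay in an intron of Rad51b (chr12:79600170-79601090) and had 1261, 1039 and 1183 in control and 1632, 1565 and 1501 in Taf4a sKO libraries (0.44, SE 0.11, limma adjusted p = 0.002). The next, at 268 kb (chr11:15769575-15770614) and 262 kb (chr4:31642237-31643403), had log2 changes of 0.10 and 0.21, which passed the test only without control replicate 3 (0.20 and 0.29) among the fits that left out 1 library. Just above the threshold lay peaks near Plekho2 (992, 823 and 1186 in control against 1594, 1580 and 1630) and in Fyn (921, 891 and 1191 against 1489, 1257 and 1199). Just below it lay peaks near Wasf2 (981, 972 and 1046 against 980, 887 and 864) and Cplane1 (922, 954 and 1122 against 1446, 1429 and 1403). The peak in Fyn lost its call without control replicate 2 (log2 change of 0.32) or Taf4a sKO replicate 1 (0.31).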

How the data were processed

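ATAC-seq libraries of 3 control and 3 Taf4a sKO MuSC samples were analysed. The deposited table gives a score per peak and library: the authors trimmed reads with Trimmomatic 0.39, aligned them with STAR 2.7.11b to mm10, removed duplicates with Picard 3.1.1 together with spliced, multi-mapping, ribosomal and mitochondrial reads, called peaks per library with MACS, counted reads in the merged peaks with featureCounts, scaled the counts for depth and rounded them. The authors used DESeq2 for their own contrasts. A shift of reads for Tn5 insertion is not given in the sources used here. Scaling to equal depth removes a difference in total accessibility between libraries only as far as depth reflects it.

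Because the values are not raw counts, log2(value + 1) was fitted with limma 3.58.1 (trend, robust moderation) in R 4.3.3 over the 75384 peaks with a mean above 10, with Benjamini-Hochberg adjustment over all of them. Fold changes on this scale slightly understate those of low peaks. The fit was tested on simulated data. Gained and lost peaks had a log2 ratio of group means beyond 1. Peak centres were compared with starts in GENCODE mouse release 21 (vM21), and sequences, motifs and copies (BLAST 2.17.0) were read from GRCm38.p6, the build of mm10. The summed share of reads was not tested, because the peaks were chosen on the control values. Per-library columns left unused numbered 0.

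Named peaks were the 10 with the highest control mean, the 5 largest rises and 5 largest falls with an adjusted p under 0.05 and groups that did not overlap, the 3 widest, the 3 farthest from a start, those next to the threshold of 1000, and the strongest within 100 kb of each of 40 MuSC genes. Further peaks of the Pax7, Fos, Cebpb, Hes1, Met and Y loci, the peaks of Taf4a and the Pax7 stretch were chosen after their values were seen. Some items named by this rule are not reported here. The peaks, gene lists and motifs were chosen with earlier results of these data known. Alternatives covered scaling, pseudocount, filter, moderation, block, left-out libraries, thresholds and windows.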

Additional observations from a re-analysis of the deposited data

How the results depend on the processing

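Of 765 refits of 51 named peaks (15 alternatives each), 652 kept direction and side of the threshold, 13 lost the call, 33 gained one and 67 changed sign. No named peak that passed the test with the deposited normalisation changed sign, and of the 872 higher and 208 lower calls none changed sign under any alternative. The log2 changes that changed sign became, with TMM factors -0.11 (Pax7), -0.09 (Wnt7b), -0.07 (Fos), -0.06 (Pnrc1, Notch1), -0.05 (Kat6b, Fgfr4), -0.04 (Ppp2r3d, Fgfr1), -0.02 (Met), -0.01 (the peak at chr11:15769575-15770614), 0.00 (Atf3), with median-of-ratios factors -0.11 (Pax7), -0.10 (Wnt7b), -0.07 (Fos), -0.06 (Pnrc1, Notch1), -0.05 (Kat6b, Fgfr4), -0.04 (Ppp2r3d, Fgfr1), -0.02 (Met), -0.01 (the peak at chr11:15769575-15770614, Atf3), with scaling to the total signal -0.14 (Pax7), -0.13 (Wnt7b), -0.10 (Pnrc1, Fos), -0.09 (Notch1, Fgfr4), -0.08 (Kat6b, Ppp2r3d, Fgfr1), -0.06 (Met), -0.05 (the peak at chr11:15769575-15770614), -0.04 (Atf3), -0.03 (Cebpb), -0.02 (Stag1), 0.00 (Nr3c1, Rbpj), with quantile normalisation -0.09 (Pax7), -0.07 (Wnt7b), -0.06 (Notch1), -0.05 (Fgfr4, Met), -0.04 (Fos, Fgfr1), -0.03 (the peak at chr11:15769575-15770614, Pnrc1). Leaving out 1 library at a time gave ranges of -0.03 to 0.15 (Ppp2r3d), -0.34 to 0.08 (the peak beyond Pax7), -0.02 to 0.15 (Kat6b), -0.06 to 0.08 (Wnt7b), -0.05 to 0.10 (Fos), -0.03 to 0.13 (Pnrc1), -0.14 to 0.23 (Pax7), -0.01 to 0.12 (Notch1), -0.03 to 0.21 (Fgfr1), -0.05 to 0.17 (Fgfr4), 0.00 to 0.22 (Met).

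Lower peaks numbered 458 with TMM, 462 with median-of-ratios, 549 with total-signal and 573 with quantile scaling, gained peaks 4, 4, 2 and 2, lost peaks 28 with total-signal and 32 with quantile scaling, and the median log2 change was 0.04 and 0.05 under the last pair. Leaving out 1 library gave 600 to 1429 higher and 3 to 29 gained peaks, the highest without control replicate 3. A control mean of 500 or more gave 6037 peaks of median width 992 bp, with 2449 higher, 698 lower, 114 gained and 118 lost, and one of 2000 or more gave 545 peaks of 1351 bp, with 149, 24, 0 and 1. Selection on all 6 libraries gave 138 lower, 61 gained and 5 lost, and selection on the Taf4a sKO mean 1798 higher, 83 lower, 162 gained, 0 lost and a median of 0.33. A log2 ratio beyond 0.58 gave 205 gained and 80 lost peaks. Promoter windows of 500 and 3000 bp gave 15.1% and 21.3% at promoters, the latter with 39.7% in introns. With protein-coding genes alone, 38.9% were intronic, 42.2% intergenic and 70.1% over 10 kb from a start. Neighbour counts were 325 at 5 kb and 1044 at 50 kb. The cause of these shifts was not tested, apart from the changed numbers of peaks or genes that the settings themselves bring.

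Replicate numbers did not pair the samples: deviations of same-numbered control and Taf4a sKO libraries correlated at 0.11, -0.12 and -0.03. With the replicate number as a block, 906 peaks were higher and 213 lower, 859 and 204 of them shared with the calls without it. Pseudocount, filter and moderation left the counts at 854 to 877 higher and 205 to 209 lower.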
